A study of Rattus norvegicus and Mus musculus with 24 samples.

Results

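The subunits of the vacuolar H+-ATPase (V-ATPase), of Ragulator and of the Rag GTPases were examined in kidney RNA of Ctns KO and Ctns WT mice and rats. Members were every gene whose symbol begins with ATP6V0, ATP6V1, ATP6AP, LAMTOR or RRAG, which gave 35 of 17376 symbols in the mouse and 31 of 14931 in the rat. Membership was set by symbol, but the set was chosen with earlier results of these data known. ATP6AP1, ATP6V0A2, ATP6V0B and ATP6V1B1 were not analysed here in the rat. After removal of symbols with hardly any reads, 32 of the 35 mouse members and 27 of the 31 rat members were tested. ATP6AP1L, ATP6V1E2 and ATP6V1FNB were left out in both species, with at most 2 reads in any mouse and at most 10 in any rat. RRAGB was also left out in the rat, where no animal had more than 1 read, whereas it had 67 to 170 reads in every mouse. Gene symbols are in capitals, in the human style used for both species.

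The V-ATPase is a rotary proton pump that acidifies lysosomes and endosomes. Its membrane sector V0, built of a, c, d and e subunits, carries the protons, and its peripheral sector V1, with the catalytic A and the nucleotide-binding B subunits, splits ATP. Ragulator, a complex of the LAMTOR proteins, holds the Rag GTPases on the lysosomal surface, where they recruit the kinase complex mTORC1 when amino acids are plentiful. In the kidney, widely expressed V-ATPase isoforms serve lysosomes and endosomes of all cells, while B1, a4, d2, C2 and G3 are known from the acid-secreting intercalated cells of the collecting duct, and a4 is also known from the brush border of the proximal tubule.

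Bulk stranded mRNA libraries had been made, 1 per animal, from 4 Ctns KO and 4 Ctns WT mice (C57BL/6 background, females, littermates aged 24 weeks) and, for the rat, from 8 animals of each genotype (Sprague-Dawley background, littermates, age and sex not given in the sources used here). Ctns encodes the lysosomal cystine exporter, and both knockout lines are models of cystinosis. The labels name kidney cortex and proximal tubule cells together, and the protocol names dissected proximal tubules. The methods of the paper give kidney cortex as the source of this RNA in both species. Rats are numbered 17 to 32, with 4 of each genotype among 17 to 24 and 4 of each among 25 to 32. The labels do not say what these ranges stand for or whether any rat had been treated, so results are given over all rats and within each range. Mouse levels are scaled values, in which the library's 75th percentile is 1. Rat levels are CPM, counts scaled to the size of the library as adjusted by TMM, the scaling of edgeR. P-values measure the spread between these animals.

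CTNS itself lay between 0.319 and 0.342 in KO and between 0.824 and 1.02 in WT mice. In rats, CTNS lay between 16.8 and 22.2 CPM in KO and between 19.2 and 27.8 CPM in WT, so the groups overlapped, and KO differed from WT among rats 25 to 32 by -0.32 on the log2 scale (adjusted p = 0.0391, edgeR), lost in 6 of 8 fits that left out 1 rat (KO rats 28, 30 and 32, WT rats 25, 27 and 29; adjusted p up to 0.114). The sources used here do not say which part of the rat gene was altered, and the rat genotypes below follow the labels alone. Depth ranged from 19309401 to 44449807 reads among the mice and from 24684042 to 40629810 among the rats. One library stood apart: KO mouse 3 had 49 XIST reads, against 17581 to 42003 in the other 7 mice, and no mouse had a read of DDX3Y, KDM5D, UTY or USP9Y. Markers of podocytes, proximal tubule, thick limb and distal tubule, principal cells and intercalated cells were detected in both species. Summed over the list, proximal tubule markers reached 28100 to 31400 CPM in WT rats 25 to 32, thick limb and distal tubule markers 2870 to 3540 CPM and intercalated cell markers 690 to 849 CPM. These sums also differed between ranges: in WT rats 17 to 24 the intercalated cell markers reached 1020 to 1200 CPM.

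Levels could be compared between members per transcript length in the mouse, as scaled value per kilobase of the longest coding transcript. In WT mice (n = 4), ATP6V1E1, a stalk subunit, was the highest at 5.02 ± 0.133 (SD). Of the a subunits, which anchor the stator in the membrane, ATP6V0A4 reached 3.11 ± 0.274, against 0.304 ± 0.00511 for ATP6V0A1 and 0.227 ± 0.0208 for ATP6V0A2. For the other pairs the wide isoform was the higher: ATP6V1B2 at 3.79 ± 0.391 over ATP6V1B1 at 2.44 ± 0.226. ATP6V0D1 had 1.38 ± 0.101 and ATP6V0D2 0.499 ± 0.0508. ATP6V1C1 had 1.16 ± 0.0996 and ATP6V1C2 0.683 ± 0.0723. ATP6V1G1, a stalk subunit, had 3.23 ± 0.178, its intercalated cell isoform ATP6V1G3 0.776 ± 0.115 and ATP6V1G2, known from neurons, 0.0814 ± 0.00392. RRAGA, RRAGC and RRAGD lay within 1 SD of each other, at 0.533 ± 0.0424, 0.525 ± 0.0411 and 0.546 ± 0.0419, and RRAGB lay far below at 0.0322 ± 0.0061. The plot of levels per length shows this order for every member tested.

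**Figure D1:**
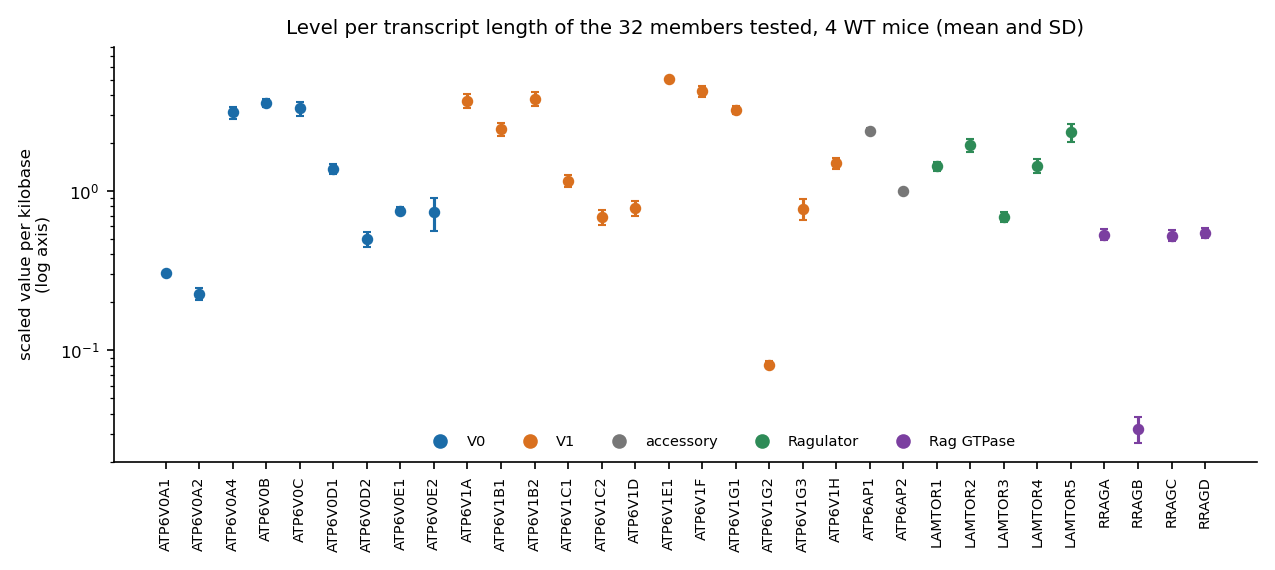
Level of each of the 32 members tested in the mouse, as scaled value per kilobase of its longest coding transcript (log axis; points are means and bars SD of 4 WT mice, coloured by sector or complex). ATP6V0A4 stands about a factor of 10 above ATP6V0A1, and ATP6V1G2 and RRAGB are the lowest.

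Rats 25 to 32 held most of the differences between genotypes. In these rats 8 of 27 members were lower and 2 were higher in KO (edgeR, Benjamini-Hochberg adjusted p under 0.05). Of all 11633 symbols tested in that range, 22.1% were lower and 21.8% were higher, so the share of members that were lower was close to the background and the share that were higher was below it. The members' median log2 fold change was -0.07, beside -0.01 over all symbols. By sector, 3 of 7 V0 members were lower, 3 of 11 V1 members were lower and 1 higher, 2 of 5 Ragulator members were lower, 1 of 3 Rag GTPases was higher, and the accessory subunit ATP6AP2 did not pass the test. Without KO rat 30, 26 or 32 the members ATP6V0E1, ATP6V1G2 and LAMTOR3, in that order, passed as well (adjusted p = 0.0432, 0.0437 and 0.0315, edgeR). The plot of changes sets both ranges beside the mice.

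**Figure D2:**
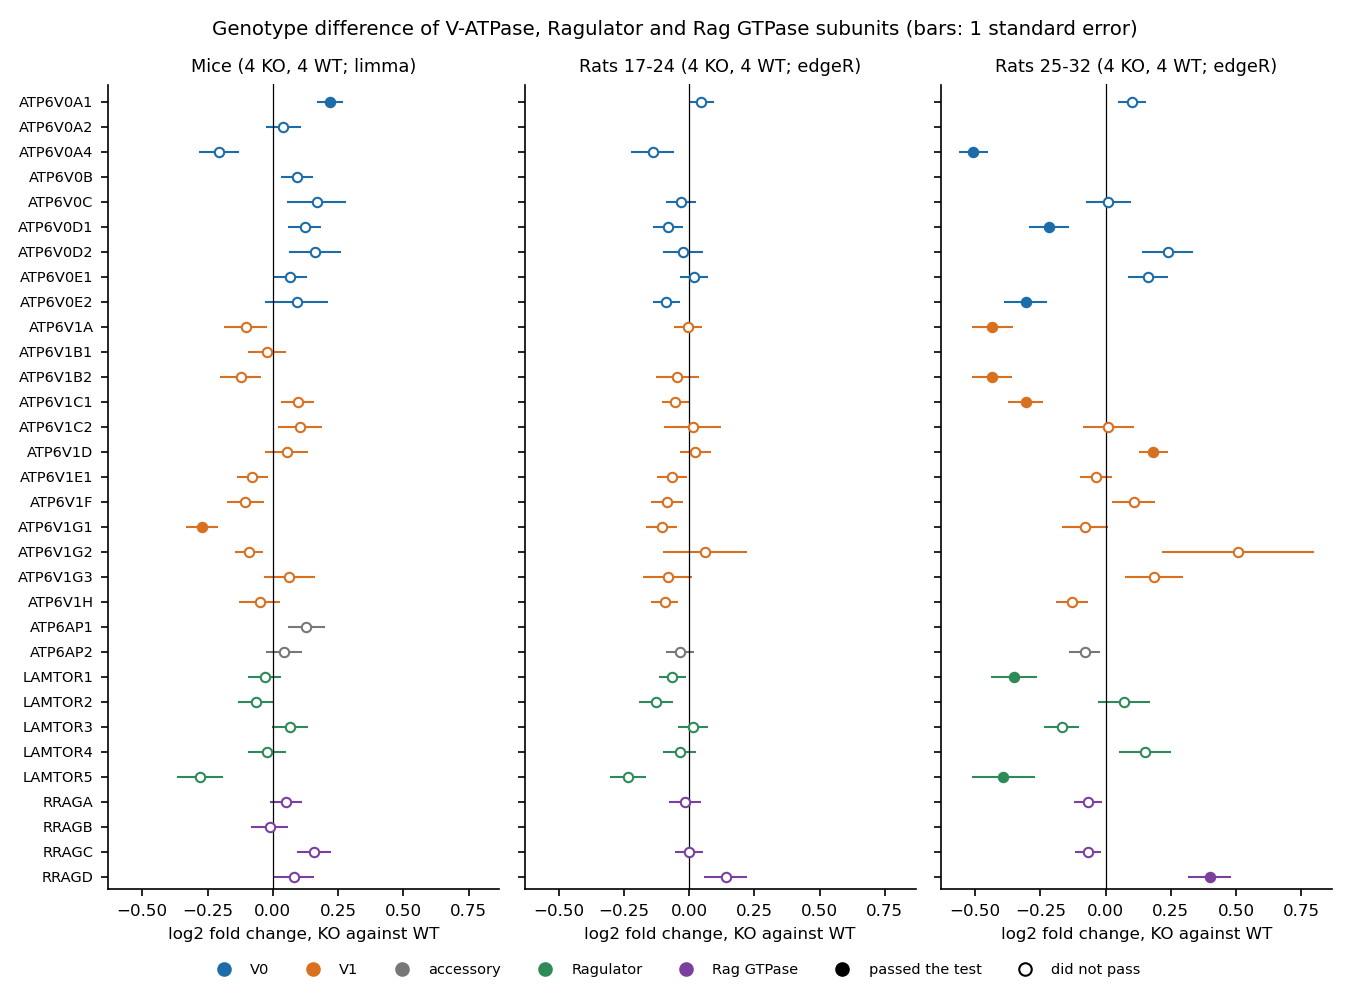
Log2 fold change of KO against WT for every member tested, in mice, in rats 17 to 24 and in rats 25 to 32 (x axis; bars are 1 standard error; filled points passed the test across all genes). Filled points number 2 in the mice, 0 in rats 17 to 24 and 10 in rats 25 to 32, where ATP6V0A4, ATP6V1A and ATP6V1B2 lie farthest left.

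Among the V0 members, ATP6V0A4 showed the largest fall. Its WT level in rats 25, 27, 29 and 31 was 774, 797, 806 and 780 CPM, and its KO level in rats 26, 28, 30 and 32 was 562, 540, 548 and 571 CPM. All 4 KO values lay below all WT values, and the KO level was 0.704 of the WT level (log2 fold change -0.51, SE 0.06, adjusted p = 6.89e-05, edgeR). Among rats 17 to 24 the groups overlapped, at 695 to 875 CPM in KO and 763 to 926 CPM in WT (log2 fold change -0.14, adjusted p = 0.377, edgeR). ATP6V0E2, a small membrane subunit, had 274, 276, 314 and 310 CPM in WT and 242, 241, 204 and 263 CPM in KO rats 25 to 32, again without overlap (log2 fold change -0.31, SE 0.08, adjusted p = 0.0127, edgeR). ATP6V0D1, the d subunit that couples V0 to the central stalk, had 457, 455, 505 and 528 CPM in WT and 423, 430, 370 and 449 CPM in KO. The groups did not overlap, but the gap between them was small, and the fall (log2 fold change -0.22, SE 0.08, adjusted p = 0.0414, edgeR) no longer passed the test without KO rat 26, 28 or 30 or without WT rat 29 or 31 (adjusted p up to 0.0964).

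The intercalated cell isoform ATP6V0D2 did not follow. It had 88.0, 71.0, 86.4 and 91.5 CPM in WT and 92.2, 86.6, 107 and 111 CPM in KO rats 25 to 32, so the groups overlapped (log2 fold change 0.24, SE 0.10, adjusted p = 0.075, edgeR). Without KO rat 28 it passed as higher (adjusted p = 0.0348). The a1 subunit ATP6V0A1 had 64.2 to 69.7 CPM in WT and 69.3 to 71.9 CPM in KO (log2 fold change 0.10, adjusted p = 0.15, edgeR). The proteolipid ATP6V0C and the membrane subunit ATP6V0E1 had log2 fold changes of 0.01 and 0.16 and did not pass either.

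In V1, both subunits of the catalytic ring fell in rats 25 to 32. ATP6V1A, the catalytic A subunit, had 478, 519, 454 and 444 CPM in WT and 377, 327, 367 and 331 CPM in KO. ATP6V1B2, the wide B isoform, had 692, 809, 805 and 842 CPM in WT and 603, 585, 527 and 613 CPM in KO. Neither pair of groups overlapped, and both genes stood at 0.740 of the WT level (log2 fold change -0.43, SE 0.08 each, adjusted p = 0.00138 and 0.00133, edgeR). ATP6V1A in rats 17 to 24 lay at 420 to 448 CPM in KO and 415 to 466 CPM in WT, and ATP6V1B2 at 604 to 704 CPM in KO and 581 to 754 CPM in WT, with full overlap. ATP6V1C1, the C subunit that clamps V1 onto V0, had 176, 177, 182 and 193 CPM in WT and 157, 140, 135 and 157 CPM in KO rats 25 to 32 (log2 fold change -0.31, SE 0.07, adjusted p = 0.00379, edgeR), without overlap.

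ATP6V1D, a subunit of the rotor, went the other way, with 178, 172, 187 and 192 CPM in WT and 211, 204, 199 and 212 CPM in KO (log2 fold change 0.18, SE 0.06, adjusted p = 0.0232, edgeR). Every KO value was above every WT value, but the call was lost without KO rat 26 or 32 or WT rat 25 or 27 (adjusted p up to 0.0627). The intercalated cell isoforms gave overlapping groups: ATP6V1C2 had 41.0 to 56.5 CPM in WT and 47.5 to 55.4 CPM in KO, and ATP6V1G3 had 155 to 232 CPM in WT and 210 to 247 CPM in KO (log2 fold changes 0.01 and 0.19, adjusted p = 0.938 and 0.197, edgeR). ATP6V1E1, ATP6V1F, ATP6V1G1, ATP6V1G2 and ATP6V1H had log2 fold changes between -0.13 and 0.51, none past the test. The highest of these, ATP6V1G2, rested on 40 to 80 reads per rat.

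Of the Ragulator genes, LAMTOR1, the lipid-anchored subunit that tethers the complex to the lysosome, had 67.9, 63.0, 70.6 and 63.2 CPM in WT and 53.5, 58.1, 43.0 and 53.0 CPM in KO rats 25 to 32. The groups did not overlap (log2 fold change -0.35, SE 0.09, adjusted p = 0.0094, edgeR). Its rat values were not all whole reads, so reads shared with another gene may be part of them. LAMTOR5 had 212, 188, 218 and 264 CPM in WT and 152, 168, 147 and 206 CPM in KO, where KO rat 32 lay inside the WT range. It passed the test (log2 fold change -0.39, SE 0.12, adjusted p = 0.0227, edgeR), but not without KO rat 26, 28 or 30 or WT rat 31 (adjusted p up to 0.0625). LAMTOR2, LAMTOR3 and LAMTOR4 did not pass, with log2 fold changes of 0.07, -0.17 and 0.15. LAMTOR2, a partner of LAMTOR3 in the core of the complex, had 78.2 to 102 CPM in WT and 83.2 to 107 CPM in KO.

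RRAGD, a Rag GTPase of the C and D type, had the larger rise of both members that were higher. It had 36.7, 32.6, 29.6 and 31.9 CPM in WT and 43.5, 40.5, 46.6 and 41.7 CPM in KO rats 25 to 32, so that every KO value exceeded every WT value at 1.32 times the WT level (log2 fold change 0.40, SE 0.08, adjusted p = 0.00304, edgeR). It had, in rats 17 to 24, 42.4 to 51.2 CPM in KO and 38.9 to 49.4 CPM in WT (log2 fold change 0.14, adjusted p = 0.374, edgeR). Between rats 17 to 24 and rats 25 to 32, its WT mean went from 42.4 to 32.7 CPM. Its KO mean went from 46.4 to 43.1 CPM. RRAGC, its paralogue, had 132, 135, 134 and 138 CPM in WT and 127, 128, 125 and 134 CPM in KO rats 25 to 32, a log2 fold change of -0.07 that did not pass (adjusted p = 0.284, edgeR). RRAGA, of the A and B type, had a log2 fold change of -0.07 as well (adjusted p = 0.335, edgeR).

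**Figure D3:**
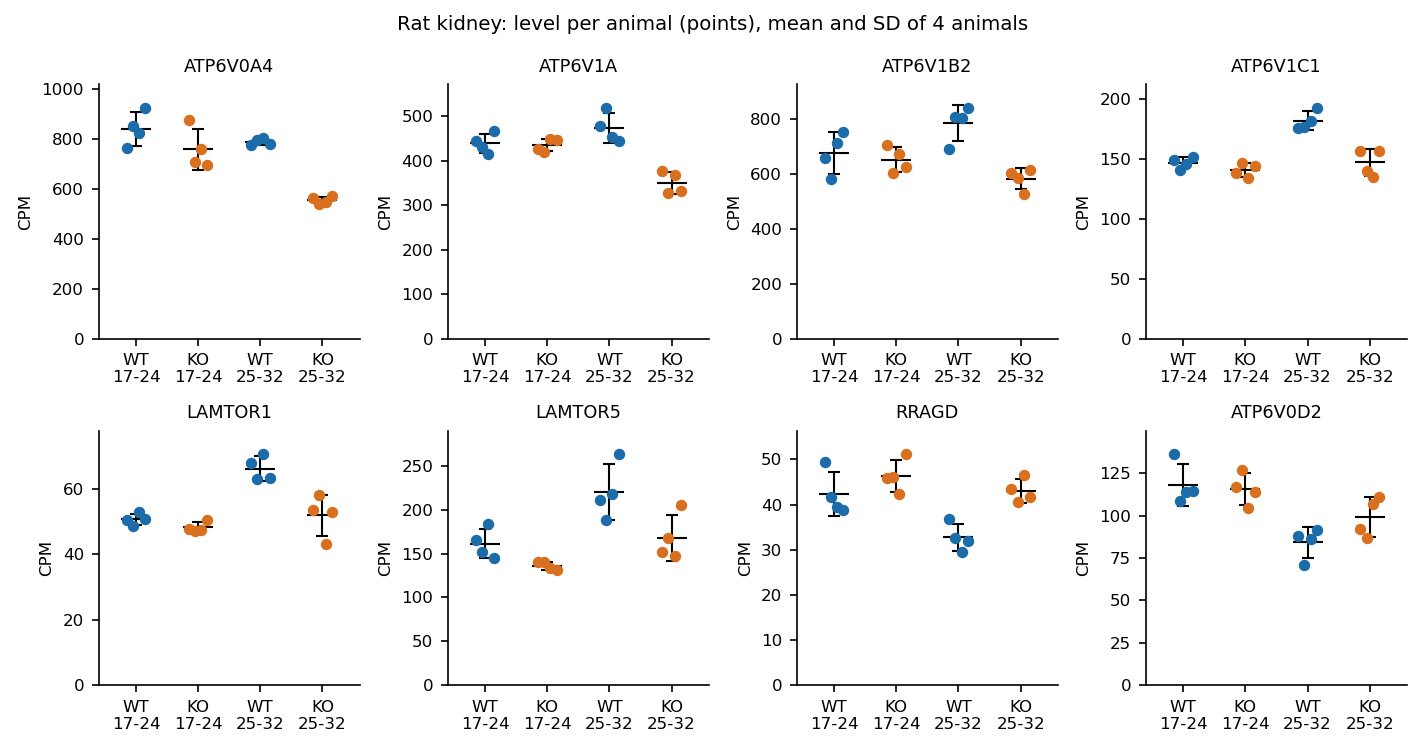
CPM of 8 members in each rat (y axis from 0; points are animals, bars the mean and SD of 4 animals; blue WT, orange KO; x axis, genotype and number range). In rats 25 to 32 the KO points of ATP6V0A4, ATP6V1A, ATP6V1B2, ATP6V1C1 and LAMTOR1 lie below and those of RRAGD above all WT points, while those of LAMTOR5 and ATP6V0D2 overlap.

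Promoters were read for the members from the RefSeq table of the rat genome GRCr8, which spans 250 bases before to 50 after each gene start. The members lower in rats 25 to 32 are a set picked from these same data. Of the 24 members with a promoter in the table, 3 held the motif CACGTG, the core of the sites bound by the lysosomal regulators TFEB and TFE3, and all 3 held it within TCACGTG on one strand or the other. They were Lamtor1, Atp6v0d1 and Atp6v0e1. ATP6V0E1 was not lower in KO rats 25 to 32 (log2 fold change 0.16, adjusted p = 0.104, edgeR). Of all 33469 promoters, 6.42% held CACGTG and 3.2% held TCACGTG, and of the 9959 promoters of symbols tested in all rats 8.98% and 5.29% did. Of the 8 members lower in rats 25 to 32, 5 had a promoter in the table and 2 of these 5 held the motif. One of them, ATP6V0D1, lost its call in 5 of 8 fits that left out 1 rat. Whether the motif bears on these falls was not tested. A match is a string of letters and no evidence of binding. The promoters of both members with the motif and of a pair of the members with the clearest falls, which do not hold it, are printed in lower case, 5′ to 3′ on the gene's strand, with CACGTG in capitals. In GRCr8 they are chr1:165683865-165684164 on the plus strand (Lamtor1, motif starting 178 bases before the gene start), chr19:50357199-50357498 on the minus strand (Atp6v0d1, motif starting 52 bases before it), chr4:67809043-67809342 on the minus strand (Atp6v0a4) and chr11:70067252-70067551 on the plus strand (Atp6v1a).
Lamtor1: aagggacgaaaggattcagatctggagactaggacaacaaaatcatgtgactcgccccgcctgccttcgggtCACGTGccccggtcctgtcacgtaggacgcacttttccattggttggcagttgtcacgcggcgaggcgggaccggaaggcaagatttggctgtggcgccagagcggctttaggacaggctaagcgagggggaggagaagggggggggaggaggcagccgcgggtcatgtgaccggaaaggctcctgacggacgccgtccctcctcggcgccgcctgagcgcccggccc
Atp6v0d1: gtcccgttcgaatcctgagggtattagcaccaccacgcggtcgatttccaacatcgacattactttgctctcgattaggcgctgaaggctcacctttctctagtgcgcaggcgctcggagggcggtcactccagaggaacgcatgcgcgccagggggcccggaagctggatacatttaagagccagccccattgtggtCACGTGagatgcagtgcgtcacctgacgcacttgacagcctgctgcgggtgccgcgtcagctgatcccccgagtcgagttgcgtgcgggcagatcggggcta
Atp6v0a4: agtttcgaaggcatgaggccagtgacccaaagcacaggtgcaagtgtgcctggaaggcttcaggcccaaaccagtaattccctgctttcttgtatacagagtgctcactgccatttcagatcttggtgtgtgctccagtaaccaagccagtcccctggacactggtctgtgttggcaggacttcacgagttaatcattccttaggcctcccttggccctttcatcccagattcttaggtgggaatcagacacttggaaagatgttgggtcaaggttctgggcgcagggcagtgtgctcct
Atp6v1a: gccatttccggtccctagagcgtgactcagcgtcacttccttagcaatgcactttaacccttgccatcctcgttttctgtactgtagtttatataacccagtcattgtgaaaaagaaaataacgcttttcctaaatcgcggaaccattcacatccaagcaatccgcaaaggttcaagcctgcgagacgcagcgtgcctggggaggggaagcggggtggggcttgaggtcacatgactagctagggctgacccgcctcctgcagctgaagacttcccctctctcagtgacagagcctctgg

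Cell type markers moved in the same rats. In rats 25 to 32, 7 of 8 proximal tubule markers tested were lower in KO (median log2 fold change -0.89), and their sum was 14500 to 18100 CPM in KO against 28100 to 31400 CPM in WT. Of 9 macrophage markers 7 were higher (median 1.22), with sums of 380 to 546 CPM in KO and 187 to 232 CPM in WT. Of 7 intercalated cell markers 1, KIT, was lower (log2 fold change -0.31) and 0 were higher, but the median was 0.11. DMRT2 (0.29), RHCG (0.21), FOXI1 (0.17) and HMX2 (0.11) leaned upward without passing. SLC4A9 (-0.25) and SLC4A1 (-0.07) leaned downward without passing. The sums of the intercalated cell markers overlapped at 679 to 888 CPM in KO and 690 to 849 CPM in WT. Among principal cell markers 3 of 5 were higher and 1 lower, among thick limb and distal tubule markers 2 of 4 were higher, and among fibroblast markers 4 of 5 were higher. Of the podocyte markers 1 of 4 was lower, of the endothelial markers 2 of 4 were lower, and both lymphocyte markers tested were higher. PVALB, of the distal tubule, had 0 reads in every rat outside the KO group of 25 to 32. Its reads in that group were too few for it to be tested. In bulk RNA, fewer cells of a type and less RNA per cell cannot be told apart, and the part of these shifts in the members' values was not tested. Rats 17 to 24 showed 3 of 8 proximal tubule markers lower (median -0.25) and 7 of 9 macrophage markers higher (median 0.56), with 2 of 5 fibroblast markers and both lymphocyte markers higher (medians 0.26 and 1.5) and 1 of 4 endothelial markers lower.

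In rats 17 to 24, 0 of 27 members passed the test, while 7.26% of 11610 symbols did (edgeR). At an unadjusted p under 0.05, 1 member was counted, and DESeq2 called 1 member as well, in both cases LAMTOR5. LAMTOR5 had 165, 152, 183 and 146 CPM in WT rats 17, 19, 21 and 23 and 140, 140, 133 and 131 CPM in KO rats 18, 20, 22 and 24. The groups did not overlap, with a log2 fold change of -0.24 (SE 0.07, adjusted p = 0.0603, edgeR), and it passed without WT rat 23 (adjusted p = 0.0205, edgeR). The other members lay between log2 fold changes of -0.14 and 0.14.

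Group means also moved from rats 17 to 24 to rats 25 to 32, which was not tested. ATP6V1C1 went from 147 to 182 CPM in WT and from 141 to 147 CPM in KO. LAMTOR1 went from 50.7 to 66.2 CPM in WT and 48.2 to 51.9 CPM in KO. ATP6V0D1 went from 411 to 486 in WT and 387 to 418 in KO. ATP6V0E2 went from 237.8 to 293.6 in WT and 222.5 to 237.5 in KO. ATP6V1A went from 439 to 474 in WT and 435 to 350 in KO. ATP6V0A4 went from 841 to 789 in WT and 759 to 555 in KO. ATP6V1B2 went from 676 to 787 in WT and 652 to 582 in KO. LAMTOR5 went from 161 to 220 in WT and 136 to 168 in KO. The difference in genotype effect between the ranges was tested directly. Of the 27 members, 4 had a lower genotype effect in rats 25 to 32 than in rats 17 to 24, beside 7.64% of 11839 symbols (edgeR interaction term), and none had a higher one. They were ATP6V1A (difference in log2 fold change -0.43, SE 0.09, adjusted p = 0.00625), ATP6V0A4 (-0.36, SE 0.10, adjusted p = 0.0258), ATP6V1B2 (-0.39, SE 0.12, adjusted p = 0.0383) and ATP6V1C1 (-0.25, SE 0.08, adjusted p = 0.046). All 4 are subunits of the proton pump, from the ring, the stator and the clamp. Of these, ATP6V1A passed with any 1 rat left out, whereas ATP6V0A4 missed the threshold without KO rat 18, KO rat 28 or WT rat 17, ATP6V1B2 without any of 9 rats (KO 18, 22, 28 and 30, WT 17, 19, 27, 29 and 31) and ATP6V1C1 without any of 13 (all but KO 26, KO 32 and WT 23), with adjusted p up to 0.0999.

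Over all 16 rats, 5 of 27 members were lower and 1 was higher in KO, where 12.3% and 15.2% of 11584 symbols were lower and higher (edgeR). The lower ones were ATP6V0A4 (log2 fold change -0.31), ATP6V1B2 (-0.25), ATP6V1A (-0.22), ATP6V0E2 (-0.21) and ATP6V1C1 (-0.19), and the higher one was RRAGD (0.25). All 6 also passed in rats 25 to 32. LAMTOR5 (-0.33, adjusted p = 0.0503, edgeR) and LAMTOR1 (-0.22, adjusted p = 0.0615, edgeR) fell just outside. With the number range as a covariate 10 of 27 members passed, beside 4443 of all 11584 symbols. With 1 rat left out 2536 to 3478 of all symbols passed, and the count of members was 1 to 10. It was 4 or fewer without any 1 of the KO rats or of the WT rats 25, 27, 29 and 31, with 1 member left without KO rat 30 or WT rat 27, 29 or 31, and 10 without WT rat 19. RRAGD also missed the threshold when low counts were kept (adjusted p = 0.0502, edgeR).

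In mice, 1 of 32 members was higher and 1 was lower in KO (limma), where 6.52% and 2.28% of 13132 symbols were. ATP6V0A1 had scaled values of 1.25, 1.20, 1.20 and 1.22 in WT mice 1, 2, 4 and 7 and of 1.42, 1.46, 1.45 and 1.40 in KO mice 3, 5, 6 and 8. The groups lay far apart relative to their spread (log2 fold change 0.22 on the scale of log2 of the value plus 0.1, SE 0.05, adjusted p = 0.0164, limma). ATP6V1G1 had 3.62, 3.42, 3.91 and 3.70 in WT and 3.08, 2.97, 2.90 and 3.11 in KO (log2 fold change -0.27, SE 0.06, adjusted p = 0.0129, limma), likewise without overlap. Both passed without KO mouse 3, the library with few XIST reads. Both missed the threshold without KO mouse 5 or KO mouse 6, at adjusted p of 0.0629 and 0.0574 for ATP6V0A1 and 0.0518 and 0.0547 for ATP6V1G1 (limma). On the mouse genome (mm10, GENCODE vM21), Atp6v0a1 spans 101009452 to 101063719 of the plus strand of chromosome 11, where a miRNA gene lies within it, and Atp6v1g1 spans 63544772 to 63550750 of the plus strand of chromosome 4.

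Neither member passed in the rats. ATP6V1G1 had 179 to 218 CPM in KO and 192 to 247 CPM in WT rats 25 to 32 (log2 fold change -0.08, adjusted p = 0.496, edgeR). Conversely, of the members lower in rats 25 to 32, ATP6V0A4 came nearest in the mouse, with 9.45, 9.55, 11.0 and 11.1 in WT and 8.49, 9.07, 9.22 and 8.73 in KO. These groups did not overlap, but the change did not pass (log2 fold change -0.21, SE 0.08, adjusted p = 0.125, limma). DESeq2 on the recovered reads called it (log2 fold change -0.23, adjusted p = 0.0317). In mm10 Atp6v0a4 spans 38048483 to 38124586 of the minus strand of chromosome 6. The protein-coding gene D630045J12Rik overlaps it on the same strand, and Tmem213 and the snRNA gene Gm23231 on the opposite strand. Strand would not separate its reads from those of a gene on the same strand. Whether the counting used strand is not given in the sources used here. LAMTOR5 had 2.24, 1.68, 2.24 and 2.07 in WT and 1.52, 1.59, 1.76 and 1.82 in KO, where WT mouse 2 lay inside the KO range (log2 fold change -0.28, adjusted p = 0.0754, limma). Without WT mouse 2 it passed (adjusted p = 0.00556, limma), as did ATP6V0E2 (adjusted p = 0.0253, limma).

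The remaining mouse members did not pass. The A and B subunits ATP6V1A and ATP6V1B2 had log2 fold changes of -0.10 and -0.12, ATP6V0D1 0.12, ATP6V1C1 0.09, ATP6V0E2 0.09, LAMTOR1 -0.03, LAMTOR2 -0.06, RRAGC 0.16 and RRAGD 0.08 (adjusted p from 0.163 to 0.839, limma). The intercalated cell isoforms ATP6V1B1, ATP6V0D2, ATP6V1C2 and ATP6V1G3 lay between -0.02 and 0.16. Beside them, 2 of 12 intercalated cell markers were higher in KO mice, the anion exchanger SLC26A4 (log2 fold change 0.38) and DMRT2 (0.33). Of all symbols 6.52% were higher. The median of the 12 markers was 0.18, and 6 of them had an unadjusted p under 0.05 (limma). The sums of these markers overlapped, at 19.2 to 21.2 in KO and 16.6 to 19.5 in WT. Only 1 of 10 proximal tubule markers passed as lower, but the median was -0.19. Their sums did not overlap, at 446 to 496 in KO and 526 to 629 in WT. Of the macrophage markers 10 of 10 were higher (median 0.55, sums of 5.35 to 6.48 in KO and 3.57 to 3.77 in WT). Of the fibroblast markers 3 of 5 were higher (median 0.79, sums of 5.51 to 6.24 in KO and 2.87 to 3.71 in WT), and of the endothelial markers 1 of 5, KDR, was lower (-0.33). The part of these in the members' values was not tested.

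**Figure D4:**
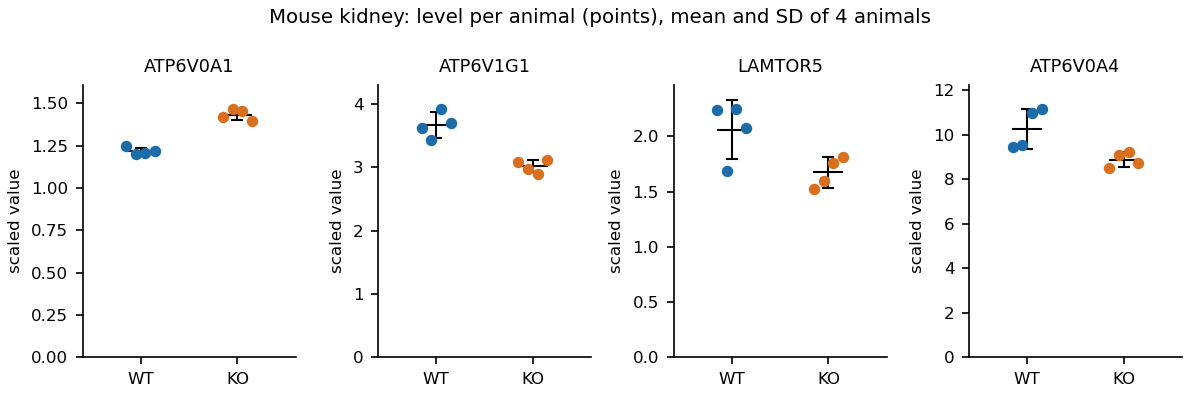
Scaled value of 4 members in each mouse (y axis from 0; points are animals, bars the mean and SD of 4 mice; blue WT, orange KO). ATP6V0A1 is higher and ATP6V1G1 and ATP6V0A4 are lower in every KO mouse than in any WT mouse, and LAMTOR5 overlaps through WT mouse 2.

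A test of whether the genotype effect differed between rat and mouse gave 0 of 27 members, beside 2.07% of 10498 symbols (limma interaction term on values scaled alike). At an unadjusted p under 0.05, 3 members were counted, ATP6V0D1, ATP6V1C1 and ATP6V1G2, and edgeR on whole reads called 0 with 2 under that p. This does not show that the species respond alike: for ATP6V0D1 the difference was -0.24 (SE 0.11) and for ATP6V1G1 it was 0.21 (SE 0.11).

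Restricted isoforms were then set against their wide partners within each library, as the log2 ratio of reads, which cancels any scaling between libraries. In rats the ratio of ATP6V0A4 to ATP6V0A1 was 3.25 ± 0.32 in KO and 3.65 ± 0.14 in WT (SD, n = 8 each), lower by a difference of -0.40 (exact permutation test, two-sided p = 0.00886, adjusted over 4 ratios p = 0.0354). In rats 25 to 32 the 4 KO values were 3.02, 2.92, 2.94 and 2.99 and the 4 WT values 3.59, 3.59, 3.53 and 3.59. In rats 17 to 24 they were 3.39 to 3.74 in KO and 3.54 to 3.95 in WT and overlapped. The spread was thus far smaller in rats 25 to 32 than the difference of -0.61 between genotypes there. The call over all rats was lost without any of 10 of the 16 rats, KO 26, 28, 30 and 32 and WT 19, 21, 23, 25, 27 and 31 (adjusted p up to 0.082, exact permutation test).

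The same ratio in mice was 2.58, 2.63, 2.67 and 2.64 in KO and 2.92, 2.99, 3.19 and 3.19 in WT, a difference of -0.44 without overlap. Its two-sided p of 0.0286 is the smallest that an exact permutation of 4 against 4 animals allows, and adjusted over 5 ratios it was 0.143. Both members entered the mouse ratio, with log2 fold changes of 0.22 for ATP6V0A1 and -0.21 for ATP6V0A4. The genotype effect did not pass as different between species for ATP6V0A1 (adjusted p = 0.322, limma) or ATP6V0A4 (adjusted p = 0.785, limma).

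The other ratios leaned upward in the rats. ATP6V0D2 to ATP6V0D1 differed by 0.26, ATP6V1C2 to ATP6V1C1 by 0.19 and ATP6V1G3 to ATP6V1G1 by 0.15, with adjusted p from 0.289 to 0.303 (exact permutation test). When genotype was permuted only within each number range, the d ratio passed as well (adjusted p = 0.0196, exact permutation test), and the C and G ratios did not (adjusted p = 0.0584 each). Within rats 25 to 32 the d ratio was -2.08 ± 0.23 in KO and -2.53 ± 0.12 in WT, and in rats 17 to 24 it was -1.74 ± 0.09 in KO and -1.80 ± 0.12 in WT (SD, n = 4 each). In mice 0 of 5 ratios passed (exact permutation test), and with 4 against 4 animals no ratio could pass on its own. Of the 5, 1, a4 to a1, was at an unadjusted p under 0.05. The B ratio, ATP6V1B1 to ATP6V1B2, was -1.03 ± 0.06 in KO and -1.13 ± 0.22 in WT mice (n = 4 each).

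**Figure D5:**
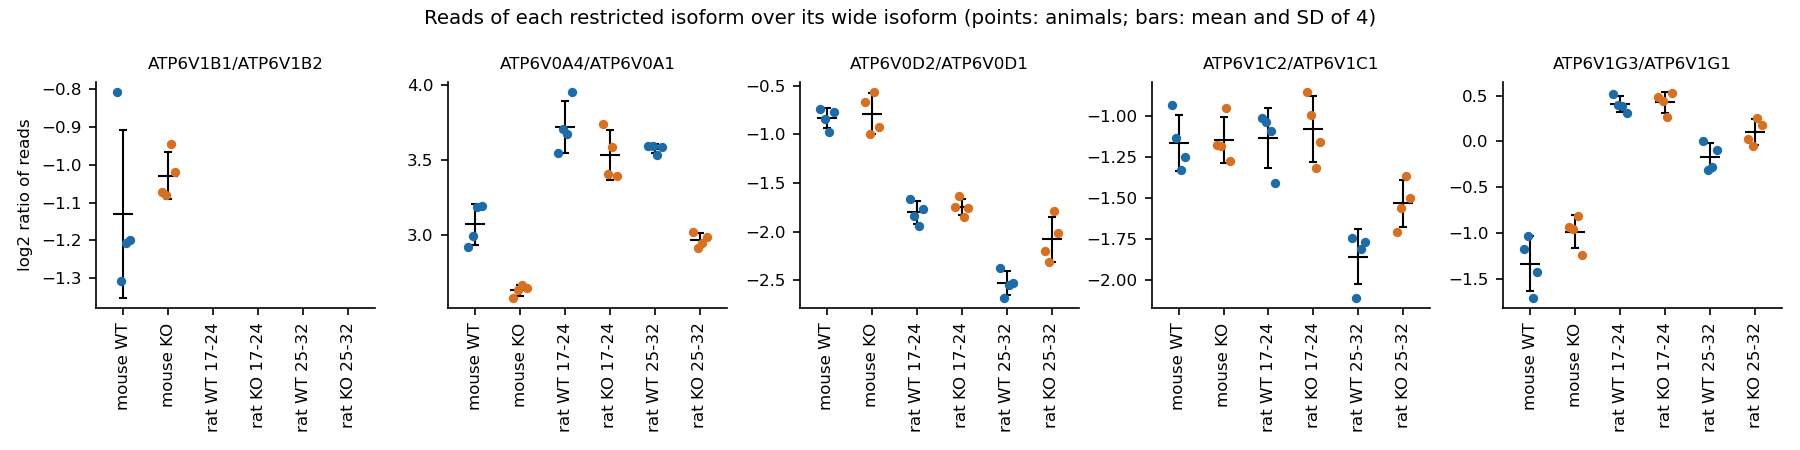
Log2 ratio of the reads of each restricted isoform to those of its wide partner, per animal (y axis, scaled per panel; points are animals, bars the mean and SD of 4). The a4 to a1 ratio is lower in KO mice and in KO rats 25 to 32 without overlap, while the d, C and G ratios lie higher on average in KO than in WT rats 25 to 32.

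Genes that work with these complexes but are no members were taken from lists. Of 11 V-ATPase partners tested in rats 25 to 32, 2 were higher and 5 lower (edgeR), beside 21.8% and 22.1% of all symbols. TCIRG1, which encodes the a3 subunit known from osteoclasts and macrophages, had 16.6, 16.1, 18 and 17.2 CPM in WT and 23.1, 28.9, 25.6 and 29 CPM in KO, without overlap (log2 fold change 0.65, SE 0.09, adjusted p = 0.000222, edgeR). Macrophage markers were higher in the same rats, with sums of 380 to 546 CPM in KO and 187 to 232 CPM in WT, and their part in the rise of TCIRG1 was not tested. TMEM9 was also higher (0.28). The lower ones included the subunits of the RAVE-like assembly complex that joins V1 to V0: DMXL2 (-0.95), DMXL1 (-0.88), WDR7 (-0.70) and ROGDI (-0.30), together with NCOA7 (-0.80), which binds the pump (adjusted p from 0.000886 to 0.0254, edgeR).

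DMXL2 had 81.6, 101, 72.0 and 61.4 CPM in WT and 45.8, 33.8, 47.1 and 37.0 CPM in KO rats 25 to 32, and the lowest WT value lay above the highest KO value. The same libraries lay at the ends for DMXL1, DMXL2, WDR7, NCOA7, FNIP2, RNF152, MTOR and DEPTOR: WT rat 27 was the highest WT rat and KO rats 28 and 32 were the lowest KO rats for each. WT rat 27 was also the deepest rat library, at 40629810 reads, and KO rat 32 the shallowest, at 24684042. KO rat 28 had 28355036 reads, and the part of depth was not tested. DMXL1 had 81.6, 118, 71.7 and 68.6 CPM in WT and 51.7, 36.2, 63.9 and 31.9 CPM in KO. WDR7 and DEPTOR missed the threshold without WT rat 27 or KO rat 28, and the other 6 passed with any 1 rat of the range left out. In rats 17 to 24 its groups overlapped, and 1 of 11 partners, ROGDI, was lower there (-0.23, adjusted p = 0.019, edgeR), though not without KO rat 20, 22 or 24 or WT rat 19 or 21 (adjusted p up to 0.0654). WDR7 missed the threshold without KO rat 28, KO rat 32, WT rat 25 or WT rat 27 (adjusted p up to 0.0822), and ROGDI without WT rat 29 (adjusted p = 0.0508). In mice 1 of 13 partners passed, TCIRG1 at 0.501 to 0.643 in WT and 0.651 to 0.704 in KO (log2 fold change 0.26, adjusted p = 0.0352, limma), and it missed the threshold without any of 7 of the 8 mice, all but WT mouse 1 (adjusted p up to 0.115).

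Of 15 regulators of Ragulator and the Rag GTPases tested in rats 25 to 32, 0 were higher and 6 lower, beside 21.8% and 22.1% of all symbols. FNIP2, which with FLCN acts on RagC and RagD as a GTPase activator, had 158, 254, 180 and 137 CPM in WT and 90.7, 58.0, 99.5 and 57.6 CPM in KO (log2 fold change -1.25, SE 0.23, adjusted p = 0.00142, edgeR). All KO values lay below all WT values. FLCN fell less (-0.22, adjusted p = 0.00799, edgeR). RNF152, a ubiquitin ligase for RagA, had a log2 fold change of -0.94, ITFG2 of the KICSTOR complex had -0.37, and SEC13 of GATOR2 had -0.26. In rats 17 to 24, 0 of 15 passed (edgeR) and in mice 0 of 18 (limma), with 0 at an unadjusted p under 0.05 in either. FNIP2 in mice had 1.58, 3.97, 2.03 and 1.99 in WT and 3.11, 2.64, 2.69 and 3.25 in KO, and passed as higher without WT mouse 2 (adjusted p = 0.00197, limma).

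Among the 10 client genes of the lysosomal scaffold, 0 were higher and 2 lower in rats 25 to 32, a share of lower genes near the 22.1% of all symbols. MTOR, the kinase itself, had 128, 149, 132 and 134 CPM in WT and 99.2, 91.3, 99.5 and 91.8 CPM in KO (log2 fold change -0.51, SE 0.07, adjusted p = 0.000189, edgeR), without overlap, and its genotype effect differed between the ranges (-0.40, adjusted p = 0.00841, edgeR). DEPTOR, an inhibitory partner of mTOR, was also lower (-0.81, adjusted p = 0.0272, edgeR), though not without KO rat 28, WT rat 25 or WT rat 27 (adjusted p up to 0.0834).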

How the data were processed

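Kidney RNA of 8 mice and 16 rats had been sequenced as TruSeq Stranded mRNA libraries with paired reads. The submitters' processing notes name bcl2fastq 2.20, STAR 2.7.3, DESeq2 1.24.0, R 3.6.1 and the builds mm10 and rn5, without roles. For the mouse the authors deposited a scaled signal, found from the values to be reads plus 0.5 over the library's 75th percentile plus 0.5. The rat values the authors deposited are estimated counts with 1/6 added; this was subtracted and the rest rounded to whole numbers. Within a tolerance of 0.01, 99% of mouse and 97.7% of rat values were whole reads.

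Mouse values were tested with limma 3.58.1 (trend, robust) on log2(value + 0.1) where the mean value was at least 0.01, which understates fold changes of low genes. Rat counts were tested with edgeR 4.0.16 (quasi-likelihood, TMM, default filter), and DESeq2 1.42.0 was an alternative (R 4.3.3). P-values were adjusted over all symbols by the Benjamini-Hochberg method, threshold 0.05. The members and gene lists were chosen with earlier results of these data known. Members named with values were those past the threshold in any comparison, 4 subunits the study measured as proteins, and 5 restricted isoforms. Several rodent genes, pseudogene copies included, can stand under 1 human-style symbol. Read depth covers counting error only. Scripts were tested on simulated data. The values of 1 regulator counted in its list are not reported here.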

Additional observations from a re-analysis of the deposited data

Results flagged for a closer look

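The 18 named members were searched for single animals far from the other 3 of their group, with rats split by number range. Of 104 groups of 4, 5 held such an animal by Dixon's ratio, and chance alone gives about 1 group in 20. WT mouse 2 had an ATP6V0E2 value of 1.78, above 1.14 to 1.22 in the other WT mice, and KO mouse 6 had an ATP6V1B1 value of 5.18, above 4.65 to 4.70. WT rat 23 had an ATP6V0A1 level of 59.7 CPM, below 64.4 to 65.4 CPM. KO rat 32 had an ATP6V1G3 level of 247 CPM, above 210 to 214 CPM. KO rat 24 had a LAMTOR1 level of 50.5 CPM, above 47.2 to 47.6 CPM.

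The genotype effect differed between the number ranges of the rats, by the interaction term of edgeR, for 4 members. The effect in rats 25 to 32 minus that in rats 17 to 24 was -0.43 for ATP6V1A, -0.39 for ATP6V1B2, -0.36 for ATP6V0A4 and -0.25 for ATP6V1C1, on the log2 scale. What the ranges stand for is not given in the labels, so age, sex, treatment and batch cannot be told apart.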

How the results depend on the processing

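No paired analysis was possible because KO and WT animals share no replicate numbers. The count of members called in mice was 2 in every setting of pseudocount and filter, 2 with edgeR on recovered reads, 3 when that fit used DESeq2 size factors, 4 with DESeq2 and 0 to 4 with 1 mouse left out (0 without KO mouse 5 or 6, 4 without WT mouse 2). Over all rats it was 6, with 4 under limma-voom, 9 under DESeq2, 10 with the number range as a covariate and 1 to 10 with 1 rat left out. Of all 11584 symbols, 3180 passed in the main fit, 3213 under limma-voom, 3631 under DESeq2 and 4443 with the covariate. In rats 17 to 24 the count of members was 0, with 1 under DESeq2 and 0 to 1 with 1 rat left out (1 without WT rat 23). In rats 25 to 32 it was 9 to 11 across settings and 8 to 10 with 1 rat left out. The range difference gave 3 or 4 members across settings and 1 to 4 with 1 rat left out, and the species difference 0 throughout. Isoform ratios called in rats numbered 1, 2 when genotype was permuted within each range and 0 to 1 with 1 rat left out. In mice they numbered 0 throughout, but so few animals could hardly give a call. There the smallest possible p, 0.0286, became 0.143 for a ratio that reached it alone (exact permutation test, adjusted over 5 ratios).

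Only values near 0 changed sign. ATP6V1C2 in rats 25 to 32 was -0.00177 without a filter and -0.0692 to 0.0644 with 1 rat left out, and over all rats -0.0557 to 0.0596. With 1 animal left out, ATP6V1G3 was -0.0306 to 0.0992 and LAMTOR2 -0.0685 to 0.0112 over all rats, and in mice ATP6V1B1 was -0.0586 to 0.0349, ATP6V1D -0.00135 to 0.101 and ATP6V1G3 -0.022 to 0.128. Apart from left-out animals, values of single named genes kept direction and side of the threshold 427 times. They newly passed it 10 times and newly missed it 13 times. With 1 animal left out they kept both 792 times, newly passed 12 times, newly missed 198 times and changed sign 14 times. The cause was not tested. Depth limits ATP6V1G2, at 40 to 83 reads per rat, and RRAGB, not tested in rats.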
